A study of Mus musculus with 2 samples.

Results

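The H19-Igf2 imprinted domain of mouse chromosome 7 was examined for CTCF binding in newborn lung. The domain was defined by 4 genes, H19, Igf2, Ins2 and Th. Its sites were all summits of the authors' optimal list from 100000 bp before to 100000 bp after the span of these genes, which is chr7:142475529-143031128 in mm10. This gave 37 of the 64732 sites on chromosomes 1 to 19 and X. Every replicate peak in the 5000 bp before the H19 start was added as well, which gave 6 peaks in replicate 1 and 5 in replicate 2.

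The libraries were CTCF ChIP-seq from whole lung of B6NCrl mice at postnatal day 0. There was 1 group, with replicates 1 and 2. The sample descriptions number them as biological replicates 1 and 2, but both name the same biosample and donor. Any difference between them may therefore be technical. No other tissue, age or genotype was compared, and no p-value is given. Bulk tissue mixes all cell types of the lung, so fewer cells with a bound site and weaker binding per cell cannot be told apart. The lists do not separate the maternal from the paternal chromosome. The number of reads is not in the lists, so the depth is unknown.

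CTCF is a zinc finger protein that halts cohesin on chromatin, and pairs of CTCF motifs that face each other are often the ends of chromatin loops. H19 is a long non-coding RNA made from the maternal chromosome, and Igf2, a fetal growth factor, is made from the paternal one in most tissues. The imprinting control region lies upstream of H19. On the maternal chromosome it is unmethylated and bound by CTCF, which keeps enhancers beyond H19 from reaching Igf2. On the paternal chromosome its CpG dinucleotides are methylated and CTCF does not bind. Ins2 encodes an insulin, and Th encodes tyrosine hydroxylase, the rate-limiting enzyme of catecholamine synthesis.

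The stretch upstream of H19 held 4 exact copies of an insulator consensus, and each had a CTCF site beside it. The consensus is CCGC, any 2 bases and then GGNGGCAG. It is known from this control region and from an insulator of the chicken globin locus, so its presence here is not an independent finding. The 4 copies are printed because the CTCF sites of the control region sit on them. Capitals mark the consensus, and each run is on the minus strand, which is the strand of H19. Names give the distance of the copy from the 5′ end of H19, and the runs span chr7:142580286-142580345, chr7:142580741-142580800, chr7:142581767-142581826 and chr7:142582011-142582070 in that order.
2166 bp upstream: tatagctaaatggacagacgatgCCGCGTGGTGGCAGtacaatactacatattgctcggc
2621 bp upstream: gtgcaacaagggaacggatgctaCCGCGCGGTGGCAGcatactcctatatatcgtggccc
3647 bp upstream: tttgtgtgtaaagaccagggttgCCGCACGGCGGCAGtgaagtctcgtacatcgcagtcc
3891 bp upstream: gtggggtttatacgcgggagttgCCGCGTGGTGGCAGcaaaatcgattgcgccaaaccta

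The copies at 2166 and 3891 bp had the same 14 letters. Over the 60 bases shown, any 2 of the 4 runs were identical at 28 to 34 bases. Outside the consensus, which chose the runs, they were identical at 14 to 21 of 46 bases. The copies held 2, 3, 3 and 2 CpG dinucleotides, the base pair step that is methylated on the paternal chromosome. Their starts were 455, 1026 and 244 bp apart. Of 53843 annotated genes, 118 (0.219%) had an exact copy of the consensus in the 5000 bp upstream of their 5′ end. H19 and Mir675, a microRNA gene inside H19, were the genes with 4 or more, and they share the same copies. With up to 2 mismatches, 8 matches lay upstream of H19, a number reached by 196 genes (0.364%).

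All 5 listed sites upstream of H19 had a peak in both replicates, as had 63131 of all 64732 sites. In each replicate, 3 of the 5 were taller than the other 2. The copy at 2621 bp carried the tallest. At that site, 2623 bp upstream (chr7:142580655-142580861), the peak signal was 103 in replicate 1 and 104 in replicate 2. The peak signal is the value that the authors' caller gave each peak, on a scale that no source used here states. The site 2178 bp upstream (chr7:142580222-142580412) had 86.0 and 81.5 in replicates 1 and 2. These 2 sites differed little between the replicates.

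The site 3665 bp upstream (chr7:142581688-142581884) had 56.7 in replicate 1 and 86.5 in replicate 2. The next, 3864 bp upstream (chr7:142581867-142582146), had 9.77 and 23.9. Both were higher in replicate 2, and the log2 ratio of replicate 1 to replicate 2 at the second was -1.29, the widest of the 37 sites. Its peak in replicate 1 ranked 73611 of 300000, and it was absent from the conservative list, which held the other 4 sites of this stretch. Its summit lay 33.5 bp from the middle of the nearest copy of the consensus, against 4.5 to 11.5 bp at the other 3 copies. It overlaps the peak at 3665 bp, so the signals of these neighbours are not independent.

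The fifth site lay closest to H19, 1122 bp upstream (chr7:142579125-142579404), with 26.1 in replicate 1 and 14.4 in replicate 2. It had no exact copy of the consensus. Its best match had 2 mismatches and no CpG. That match is shown for contrast with the 4 copies above, on the minus strand at chr7:142579250-142579289, with capitals marking the 20 bases that scored best against a CTCF weight matrix.
1122 bp upstream: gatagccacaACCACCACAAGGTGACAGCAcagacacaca

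The remaining peak, 4371 bp upstream, was found in replicate 1 with a signal of 4.97 and a rank of 155633. Replicate 2 had no peak there. The body of H19 held 0 sites of the optimal list.

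**Figure D1:**
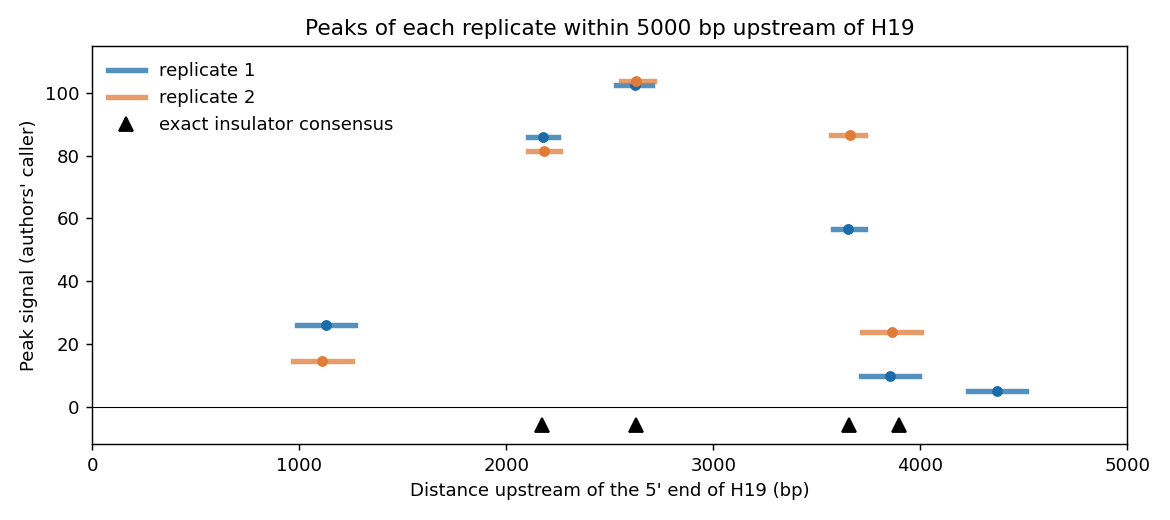
Peaks of replicate 1 (blue) and replicate 2 (orange) within 5000 bp upstream of H19, with distance from its 5′ end in bp on the x axis and peak signal on the y axis. Bars span the peaks, dots mark summits and black triangles mark the 4 exact copies of the consensus, of which the first 3 sit under peaks of 56.7 to 104.

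Within the domain, sites with an exact match to the insulator consensus were found upstream of H19. Of the 5 sites upstream of H19, 4 had the exact consensus within 50 bp of the summit, against 137 of all 64732 sites (0.212%). Of the other 32 sites of the domain, 0 had it, which allows a share of up to 9.38% (3 counts of the total). The 12-letter core of the CTCF motif was sought with at most 1 mismatch. The core was at 0 of the 5 sites, at 11 of the 32 others (34.4%, 95% Wilson interval 20.4% to 51.7%), and at 48.3% of all sites. Core and consensus can be aligned, but the third letter is A in the core and G in the consensus. An exact copy of the consensus thus carries at least 1 mismatch to the core, before its free letters are counted. The lack of the core at the 4 sites with a copy follows in part from these letters. With up to 2 mismatches the core was at 3 of the 5 sites and at 24 of the 32 others, against 76.2% of all sites. Its absence within 50 bp of these summits thus held at the stricter limit alone. At the sites 2178 and 3864 bp upstream that core match lay on the plus strand and the consensus copy on the minus strand. The match there was therefore not the copy itself, and the site 1122 bp upstream had no exact copy. A core with 1 mismatch also lay 89.5 bp from the summit of the site 3864 bp upstream, outside the 50 bp searched. With up to 2 mismatches, the insulator consensus was at all 5 sites upstream of H19 and at 8 of the 32 others, against 20.1% of all sites.

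The insulator consensus itself contains a CpG dinucleotide. At least 2 CpG lay in the best 20-base match at 4 of the 5 sites, at 4 of the 32 others, and at 13.1% of all sites. The 4 matches with the exact consensus scored under the median of all sites on a weight matrix built from the 5000 strongest sites outside the domain, and the match 1122 bp upstream scored over it. Of all sites, 27.9% to 40.8% scored lower than the 4 matches with the consensus, and 55.8% scored lower than that match. The matrix was started from sites with the core, so the scores of the 4 matches also follow in part from the letters of the consensus. With a threshold at the 99th percentile of windows 1000 bp to either side, 26 of the 37 sites had a matrix match (70.3%), against 59.2% of all sites. Upstream of H19 it was 2 of 5, at 1122 and 3864 bp. The match at 3864 bp passed narrowly, with a score of 11.93 against a threshold of 11.9. The match at 2178 bp, with the same 14 letters of the consensus, scored 9.74 and did not pass.

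**Figure D2:**
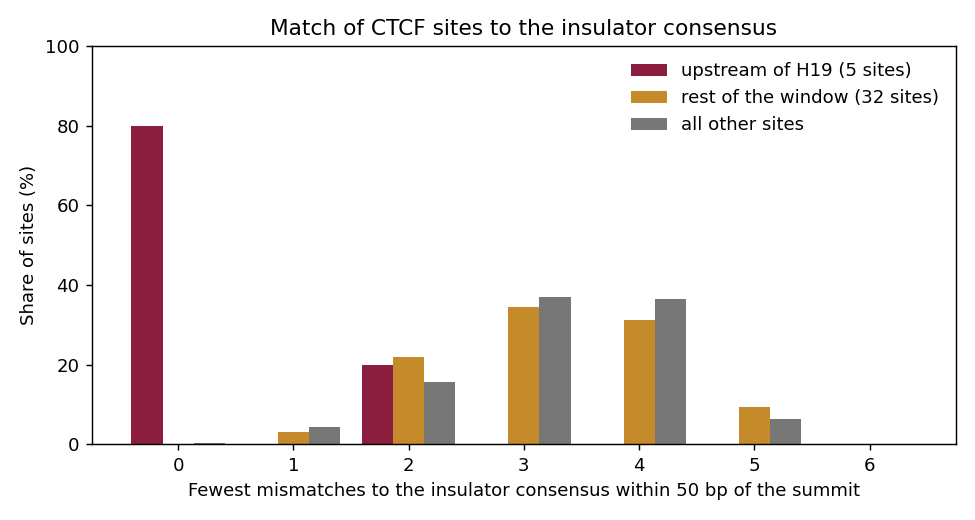
Share of sites in % (y axis) by the fewest mismatches to the insulator consensus within 50 bp of the summit (x axis), for the 5 sites upstream of H19, the 32 other sites of the domain and all other sites. The bar at 0 mismatches stands at 80% for the sites upstream of H19 and is close to 0 for the rest.

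The signal upstream of H19 was in the range of other sites that carry the same consensus without the core. Elsewhere in the genome 133 sites had the exact consensus, and 72 of these also had the core with at most 1 mismatch. The pooled signals of the 4 sites upstream of H19 were 167, 209, 139 and 32.0, with a median of 153. The 61 sites elsewhere without the core had a median of 141, with quartiles of 48.7 and 269. The 72 sites elsewhere with the core had a median of 328. Of the 61, 34, 37, 30 and 9 were lower than the 4 sites in turn. Only 2 of the 133 lay within 5000 bp of another site of this kind. These pooled values come from the authors' list of both replicates together.

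**Figure D3:**
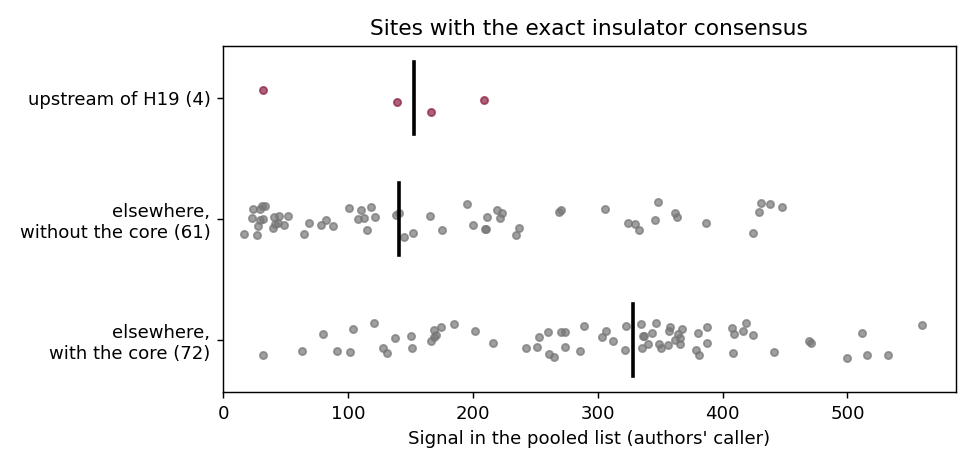
Signal in the pooled list (x axis) of every site with the exact insulator consensus, with the 4 sites upstream of H19 on top and the sites elsewhere without and with the core under them. Each dot is a site and the black line is the median, 153 upstream of H19, 141 without the core and 328 with it.

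The domain as a whole was rich in tall CTCF peaks. It held 66.6 sites per Mb, against 29.4 on chromosome 7 and 24.6 over all chromosomes. The neighbouring imprinted domain of Kcnq1 and Cdkn1c, a potassium channel and a cell cycle inhibitor, held 66.7 per Mb and shares 4 sites with this one. The imprinted Dlk1-Meg3-Dio3 domain on chromosome 12 held 32.1. The median pooled signal was 185 in the H19-Igf2 domain, against 84.2 in the Kcnq1-Cdkn1c domain, 49.6 in the Dlk1-Meg3-Dio3 domain and 76.2 over all sites. Of the 37 sites, 25 were among the 32366 of highest signal. In the conservative list 36 of the 37 were found (97.3%), against 87.4% of all sites.

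Each of the 37 sites had a peak in both replicates within 100 bp of its summit, as had 63131 of all 64732 sites. The signals in replicate 1 ranged from 9.77 to 286 with a median of 93.9, and those in replicate 2 from 13.2 to 271 with a median of 91.7. The median over all sites was 40.8 in replicate 1 and 37.5 in replicate 2. The replicates were within 1.5-fold of each other at 33 of the 37 sites, and no such count over all sites is given. The median absolute log2 ratio was 0.16 in the domain and 0.21 over 63131 sites with a peak in both replicates. A width of exactly 280 bp was seen at 12 of the 37 sites, none with a pooled signal above 76.5, and at 57.8% of all sites.

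**Figure D4:**
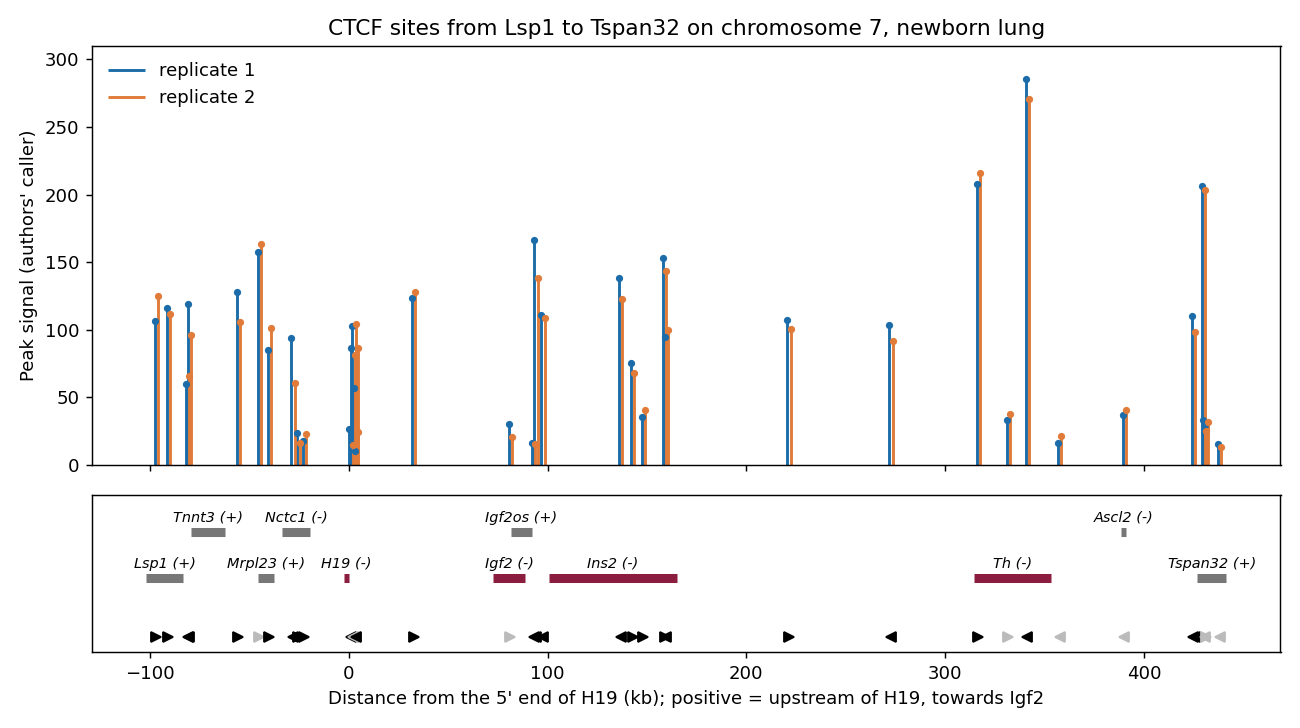
Signal of each site in replicate 1 (blue) and replicate 2 (orange) on the y axis, with distance from the 5′ end of H19 in kb on the x axis. Bars below mark member genes (dark red) and neighbouring genes (grey, Lsp1 not drawn to its start), and arrowheads give the strand of the best matrix match, black where it passed the threshold. The tallest site, at 286 and 271, lies in Th.

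Between H19 and Igf2, a stretch of 67622 bp from 5000 bp upstream of H19 to the 3′ end of Igf2 held a single site. It lay 32609 bp upstream of H19 (chr7:142610648-142610856), in an intron of the non-coding RNA gene Gm33148, and reached 123 in replicate 1 and 128 in replicate 2. Its match was on the plus strand and faced towards Igf2, whereas the best matches of all 5 sites upstream of H19 were on the minus strand. The match, with 2 CpG, is shown because it is the only one between the control region and Igf2, and it spans chr7:142610739-142610778 on the plus strand with the best 20 bases in capitals.
32609 bp upstream: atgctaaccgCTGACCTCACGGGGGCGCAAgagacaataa

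Igf2 had a low site at an internal start and 3 sites beyond its 5′ end. The internal site (chr7:142659215-142659494) lay 134 bp downstream of an annotated start, in a UTR of Igf2 and 338 bp upstream of its antisense gene Igf2os. It reached 30.2 in replicate 1 and 20.2 in replicate 2. Its 201 bp surroundings were 81.1% G and C with 31 CpG, against medians of 49.8% and 3 over all sites, and its best match did not pass the matrix threshold.

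The 3 sites between the 5′ end of Igf2 and the 3′ end of Ins2 all had their best match on the minus strand. The middle of them (chr7:142672197-142672448) was the tallest, with 166 in replicate 1 and 138 in replicate 2. The site nearest Ins2 (chr7:142675763-142675963) had 111 and 108. The site nearest Igf2 (chr7:142671106-142671385), 4430 bp upstream of the outermost 5′ end of Igf2, had 16.1 and 15.0. Going from H19 to Ins2, the plus-strand match in Gm33148 and these minus-strand matches face each other, and the only site between them is the Igf2 site below the threshold.

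The longest annotated transcript of Ins2 held 5 sites, and their matches resembled each other. Together with the 2 sites between Ins2 and Th, 7 sites had a best match within 5 bases of a single 20-base sequence, against 827 of all 64732 sites (1.28%). This group was defined after the matches had been seen, so its count is a description. The matches are shown to let their likeness be seen, each on its own strand, with the 20 bases in capitals and named by the distance of the summit from the 5′ end of H19. They start at chr7 positions 142714851 (minus strand), 142720914, 142726193 and 142737112 (plus strand), 142737944 (minus), 142799618 (plus) and 142850845 (minus).
136744 bp upstream: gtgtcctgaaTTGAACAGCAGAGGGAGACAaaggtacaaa
142762 bp upstream: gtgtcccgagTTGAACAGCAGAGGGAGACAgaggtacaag
148060 bp upstream: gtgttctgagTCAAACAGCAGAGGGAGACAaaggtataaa
158992 bp upstream: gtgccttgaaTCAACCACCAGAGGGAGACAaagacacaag
159828 bp upstream: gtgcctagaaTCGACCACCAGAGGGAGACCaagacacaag
221490 bp upstream: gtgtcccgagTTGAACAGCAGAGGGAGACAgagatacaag
272720 bp upstream: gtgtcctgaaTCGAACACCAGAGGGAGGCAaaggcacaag

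The 20 bases chose the group, so the likeness of the matches is no finding. In the 40 bases on either side of the match, any 2 of the 7 were identical at 35 to 71 of 80 positions (43.8% to 88.8%), with a median of 63.8% over 21 pairs. The first, second and sixth shared all 20 bases. This 20-base sequence occurs 14 times on chromosomes 1 to 19 and X, and 5 of these copies had a site within 100 bp, among them all 3 copies of the domain. The sequence was chosen as the match that 3 sites of the domain share. That these 3 copies had a site was therefore fixed by the choice. At least 10 of the 20 bases were soft-masked as repeats in RefSeq at these 3 sites and at 0 of the other 4. Over the domain 3 of 37 matches were masked in this way (8.11%), against 20.7% of all sites.

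These 7 sites differed in height. The tallest (chr7:142737013-142737247) had 153 in replicate 1 and 143 in replicate 2. It lies in an intron of the long Ins2 transcript, next to a site of the opposite strand (chr7:142737898-142738082) with 94.6 and 99.8. The site 136744 bp upstream of H19 (chr7:142714775-142714989), in a UTR of Ins2 by the annotation, had 138 and 122. The site 142762 bp upstream had 75.0 and 67.7 and that at 148060 bp had 35.4 and 40.6. The 3 sites with the same 20 bases had 138, 75.0 and 107 in replicate 1, so sites with the same match differed by more than the replicates of any of them. The short Ins2 transcripts, from which insulin is made, had no site near their start, and the nearest to any Ins2 start was 3667 bp away.

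From Ins2 to Th, 149370 bp held 2 sites. The intergenic site (chr7:142799537-142799715) had 107 in replicate 1 and 100.5 in replicate 2, with its match on the plus strand. The site in an exon of the non-coding RNA gene Gm39117 (chr7:142850763-142850972) had 103 and 91.7, on the minus strand. The longest gap of the domain, 61662 bp, lay before the first of them.

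Th held the tallest site of the domain. The peak at chr7:142919272-142919606, in an intron of the long Th transcript, had 286 in replicate 1 and 271 in replicate 2 and ranked 64 among all 64732 sites by pooled signal. A second peak in Th (chr7:142894720-142894986) had 207 and 216 and ranked 1612. It lay 1750 bp inside an annotated start. The site between them (chr7:142909698-142909977) had 33.4 and 37.2, and the site 4722 bp upstream of the outermost Th start (chr7:142935710-142935989) had 15.8 and 21.1. The matches of the 2 tall sites lay on the plus and the minus strand and face each other. They are shown because they carry the highest signals of the member genes, at chr7:142894843-142894882 on the plus strand and chr7:142919438-142919477 on the minus strand, with the best 20 bases in capitals.
316716 bp upstream: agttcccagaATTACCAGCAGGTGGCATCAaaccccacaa
341296 bp upstream: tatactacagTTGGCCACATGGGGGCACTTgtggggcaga

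The first of these had the core without mismatch. The second had no core within 1 mismatch although it was the tallest.

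The flank beyond the 3′ end of H19, where the enhancers shared by H19 and Igf2 lie, held 10 sites in 100000 bp. Of the neighbouring genes chosen for description, Mrpl23, a gene of the mitochondrial ribosome, had a site in its UTR 36 bp upstream of an annotated start (chr7:142533016-142533252), with 157 in replicate 1 and 163 in replicate 2. A second site in a Mrpl23 intron had 84.9 and 100.9. Tnnt3, the troponin T of fast skeletal muscle, had one 835 bp upstream (chr7:142497885-142498104), in an intron of Prr33, with 119 and 95.9. Its neighbour (chr7:142497025-142497157) had 59.8 and 65.5. Lsp1, a leukocyte protein of the actin cytoskeleton, held 2 sites in its body, with 107 and 125 at chr7:142481261-142481475 and 116 and 112 at chr7:142487360-142487575. The non-coding gene Nctc1 held 3, at 93.9 and 60.2, 23.3 and 15.8, and 17.4 and 22.8. The last of these (chr7:142555742-142556021) was the nearest to the 3′ end of H19. Between Tnnt3 and Mrpl23 a site at chr7:142522462-142522664 had 128 and 106.

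Beyond Th, Ascl2, a transcription factor of the placenta, had a site in its coding exon 447 bp downstream of an annotated start, with 36.8 in replicate 1 and 40.5 in replicate 2. Tspan32, a tetraspanin of blood cells, held 4 sites, of which the tallest (chr7:143008074-143008345) had 207 and 203. It lay within 1000 bp of a start of the antisense gene Tspan32os. That site had the core without mismatch, and 99.9% of all sites scored lower on the matrix. The other 3 sites in Tspan32 were low, with 15.3 to 32.9 in replicate 1 and 13.2 to 31.8 in replicate 2. A site upstream of Tspan32 (chr7:143002772-143002984), in an intron of Tspan32os, had 109.9 and 98.5 and also the core without mismatch. Within 1000 bp of the start of any transcript lay 6 of the 37 sites (16.2%, 7.65% to 31.1%), against 22.4% of all sites. The sites at Mrpl23, Igf2 and Ascl2 had 22, 31 and 27 CpG in their 201 bp surroundings, and none of the 3 had a match above the threshold.

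The strand of the best match gave no single direction over the domain. It was plus at 17 sites and minus at 20. Among the 26 sites above the threshold 13 were on each strand. Of the 25 neighbouring pairs among these, 11 were on the same strand, 7 faced each other and 7 faced apart.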

How the data were processed

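Peaks were analysed from 2 replicates of CTCF ChIP-seq. Per the labels, positions use mm10. Per the deposited file descriptions, the replicate lists came from the alignments of each replicate, the pooled list from both, and the other 2 lists, optimal and conservative, were filtered by IDR, the irreproducible discovery rate. No source used here gives the caller, its settings or the depth. The signal (column 7) was deposited by the authors, as was the −log10 of the q-value, at most 5.08 in the optimal list. Signals were used to describe and rank peaks.

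A site's value in a replicate was that of its tallest peak no more than 100 bp from the summit. Genes came from GENCODE M21 and bases from RefSeq GRCm38.p6, the assembly of mm10, with matches sought within 50 bp of the summit on both strands. The weight matrix (20 positions) was built from the best matches of the 5000 strongest sites outside the domain, started from the 3642 with the core. Functions were tested on simulated data. Python 3.11.15, numpy 2.4.6 and pandas 2.3.3 were used.

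The members, lists and tests were chosen with earlier results of these data known. Named genes were the members, those at or around the 10 tallest sites or within 1000 bp of a site, and a list of neighbours. Of these Ctsd, Syt8, Tnni2, Cd81 and Tssc4 start outside the domain and are not described. Lsp1 starts outside but holds sites. Wilson intervals (95%) cover counting error only. Alternatives were other lists, distances, mismatch limits and each replicate alone.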

Additional observations from a re-analysis of the deposited data

How the results depend on the processing

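The domain held 36 to 39 sites with the conservative list or with the highest peaks of either replicate alone (37 and 39), and 58 with a flank of 200000 bp. Its density was 59.3 to 76.8 per Mb. Upstream of H19, 4 or 5 sites were found with either replicate alone, 3 without sites near a stronger site, 3 among the sites of highest signal and 2 within 2500 bp, where each replicate also had 2 peaks. The core was at 3 of the 37 sites with 0 mismatches (12.4% of all sites) and at 27 with up to 2 (73.0%, against 76.2% of all sites). The insulator consensus was at 5 sites with up to 1 mismatch and 24 with up to 3. Exactly 1 mismatch was the fewest at 1 site, against 4.35% of all sites. Exactly 3 was the fewest at 11 sites, against 36.9% of all sites. Its matches upstream of H19 numbered 4 with up to 1 mismatch or none and 2 within 2500 bp. The plus strand was found at 6 sites with the core alone, which fewer sites have, and at 24 sites a start lay within 5000 bp. For these counts no share over all sites is given. The share of the domain's signal upstream of H19 was 9.07%, 8.48% to 9.66% with either replicate alone and 6.23% without sites near a stronger site. The threshold on the matrix score was added after the data were seen. No paired analysis was possible because there is 1 group.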

Other observations

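The pooled list of 300000 peaks held 112 peaks in the domain, and 53 of these were absent from both IDR lists and over 2000 bp away from any of their sites. Their highest signal was 27.1. The core with at most 1 mismatch was at 0 of the 53, which allows a share of up to 5.66% (3 counts of the total), and at 0 of 106 windows 1000 bp to either side. Replicate 1 had 95 peaks in the domain and replicate 2 had 111.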
